A study of Mus musculus with 18 samples.

Results

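The genes described are 8 members of the interleukin-1 (IL-1) system: the cytokine genes Il1b and Il18, the receptor antagonist Il1rn, the signalling receptor Il1r1, the decoy receptor Il1r2, the binding protein Il18bp, the protease gene Casp1 and the inflammasome sensor gene Nlrp3. They are 8 of the 55487 Ensembl gene IDs in each table, and all 8 were matched by symbol. They were listed with their levels in these same libraries known, so their levels and folds between organs are given as a description, without a test. The tests below concern 43 other genes of the same pathway. These were also listed with earlier results of these data known, so their counts are descriptive too.

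Poly(A) RNA was sequenced from regulatory T (Treg) cells, a suppressive class of CD4+ T cell marked by the factor Foxp3. The cells were sorted fresh from wild-type mice that had received no treatment, with 3 libraries from each of 6 organs: peripheral blood, bone marrow, lung, liver, spleen and lymph node (18 in all). The question named by the series is how Treg cells of the blood compare with those of the other organs. The labels give no age, sex, sorting gate, number of animals per library or origin of the replicates, so the spread between replicates may be technical.

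The values are TPM, an abundance measure that divides reads by transcript length and sums to a fixed total, so that it is a share of each library's RNA. TPM keeps no read depth. From the steps between low values, 1 read on a transcript of 1 kb was worth on average 0.377 TPM in liver and 0.233 TPM in lung, against 0.157 in spleen, 0.116 in bone marrow and 0.0827 to 0.0876 in blood and lymph node, so low values in lung and liver were the least precise. The variance between replicates of an organ was 2.32 to 8.57 times that of counting noise over 18 pairs, and each library was counted as 1 replicate. Foxp3 was present in all 18 libraries, between 85.4 and 240.3 TPM, and all 5 Treg markers (Foxp3, Il2ra, Ctla4, Ikzf2, Tnfrsf18) were above 1 TPM in each organ. Their summed level was lowest in blood, at 472 TPM. It was 891 TPM in spleen, 894 in bone marrow, 1242 in lymph node, 1751 in liver and 2496 in lung. Markers of mature neutrophils and of monocytes and macrophages were also present, at very different levels between organs, and their values are given beside the results they move with. In bulk RNA of this kind, fewer cells of a type and less RNA per cell cannot be told apart.

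IL-1 beta and IL-18 are made as inactive precursors, and caspase-1 cleaves them after a sensor such as NLRP3 has assembled an inflammasome. IL-1 beta signals through the receptor IL1R1 with its partner IL1RAP, while the antagonist IL1RN occupies that receptor and the decoy IL1R2 binds IL-1 without passing on a signal. Neutrophils, monocytes and macrophages are the classical makers of IL-1 beta, and activated Treg cells are known for IL1R2 and for ST2, the receptor of the related cytokine IL-33.

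Promoter sequence is shown for the 3 members with the steepest gradients between organs, Il1b, Il1rn and Nlrp3, and for Casp1, which was broadly present, so that their different patterns can be read beside their start regions. Each line gives the 250 bases before a RefSeq transcription start on GRCm38.p6, 5′ to 3′ on the strand of the gene. The stretches are chr2:129371140-129371389 on the minus strand for Il1b, chr2:24336610-24336859 on the plus strand for Il1rn, chr11:59542436-59542685 on the plus strand for Nlrp3, and chr9:5298267-5298516 on the plus strand for Casp1. For Il1rn and Nlrp3 this is 1 of 3 and 1 of 2 annotated starts. Capitals mark matches to 5 motifs searched on both strands: TATA box TATAAA, AP-1 TGANTCA, NF-kappaB (GGGA and CC with 4 bases of any kind between them), PU.1 GAGGAA and C/EBP TTGCNNAA.
Il1b: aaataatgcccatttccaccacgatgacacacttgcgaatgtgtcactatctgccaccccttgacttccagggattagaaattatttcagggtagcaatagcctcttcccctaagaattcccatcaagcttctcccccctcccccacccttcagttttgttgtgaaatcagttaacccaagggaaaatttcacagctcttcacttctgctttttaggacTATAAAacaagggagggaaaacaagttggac
Il1rn: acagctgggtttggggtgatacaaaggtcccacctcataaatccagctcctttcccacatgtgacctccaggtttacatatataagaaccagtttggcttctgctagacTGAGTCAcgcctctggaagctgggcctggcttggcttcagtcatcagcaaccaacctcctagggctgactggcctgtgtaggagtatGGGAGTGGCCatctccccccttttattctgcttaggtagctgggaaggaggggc
Nlrp3: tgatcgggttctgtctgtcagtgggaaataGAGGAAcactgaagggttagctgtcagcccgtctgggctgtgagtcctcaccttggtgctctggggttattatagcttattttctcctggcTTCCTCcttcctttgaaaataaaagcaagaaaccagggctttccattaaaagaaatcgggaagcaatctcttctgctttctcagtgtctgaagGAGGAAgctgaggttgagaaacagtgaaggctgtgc
Casp1: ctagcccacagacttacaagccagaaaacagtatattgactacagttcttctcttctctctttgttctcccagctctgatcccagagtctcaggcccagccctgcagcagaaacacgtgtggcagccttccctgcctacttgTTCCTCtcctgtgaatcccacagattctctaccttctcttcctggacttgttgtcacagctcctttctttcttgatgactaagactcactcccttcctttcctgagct

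The marked match in Il1b is a TATA box 31 to 26 bases before the start. In Il1rn, an AP-1 match lies 141 to 135 bases and an NF-kappaB match 54 to 45 bases before the start. Nlrp3 has 3 PU.1 matches, beginning 220, 129 and 36 bases before the start, of which the middle one is on the minus strand and reads TTCCTC. Casp1 has 1 PU.1 match, 108 to 103 bases before the start and also on the minus strand. The second Nlrp3 window holds an NF-kappaB match 186 to 177 bases before its start instead. Among the other members, Il1r1 and Il18bp each have a C/EBP match, at 133 and 49 bases before the start, Il18 has a TATA match on the minus strand at 175 bases, and the Il1r2 window has no match to these letters. Over 32817 RefSeq windows of 300 bases (250 before to 50 after the start), TATAAA occurs in 13.6%, TGANTCA in 7.81%, the NF-kappaB motif in 20.7%, GAGGAA in 28.3% and TTGCNNAA in 10.8%. A match describes the letters and does not show that a factor binds there.

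Il1b was by far the most unequal of the 8 genes. It lies at chr2:129364570-129371139 on the minus strand (GRCm38) and encodes the precursor of IL-1 beta. Its level was 1606, 1531 and 1589.9 TPM in the 3 blood libraries and 212.1, 214.0 and 213.2 TPM in bone marrow. It was 55.6, 59.7 and 65.1 TPM in lung and 26.9, 27.1 and 13.4 TPM in spleen. In liver it was 7.30, 2.59 and 11.6 TPM, and in lymph node 2.11, 0.50 and 0.43 TPM. No library of any organ reached into the range of the next organ, so the order blood, bone marrow, lung, spleen, liver, lymph node held library by library. The blood mean of 1576 ± 39.1 TPM (SD, n = 3) was 7.39 times the bone marrow mean, bone marrow was 3.54 times lung, lung 2.67 times spleen, spleen 3.13 times liver and liver 7.08 times lymph node. From end to end, the means differed 1555-fold. Without lymph node replicate 1 that fold was 3389 and liver was 15.4 times lymph node. An antisense gene, Il1bos, shares 25 exon bases with Il1b on the opposite strand. Its mean ranged from 0 to 3.39 TPM over the organs, far under that of Il1b in blood.

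Il1rn, which encodes the IL-1 receptor antagonist and lies at chr2:24336853-24351494 on the plus strand, followed a similar but flatter course. The blood libraries held 61.0, 58.5 and 52.0 TPM, the bone marrow libraries 24.1, 22.3 and 26.8 TPM, and the lung libraries 17.6, 18.5 and 26.0 TPM. In spleen it was 2.78, 2.80 and 0.54 TPM, in lymph node 0.43, 0.97 and 0.37 TPM, and in liver 0.20, 0.48 and 0.21 TPM. Blood stood above all other libraries, and bone marrow and lung overlapped each other. At the low end lymph node overlapped both spleen and liver, which did not overlap each other. The ratio of ligand to antagonist, taken between organ means of TPM, was 27.6 in blood, 8.73 in bone marrow and 11.02 in spleen, against 2.90 in lung. Lung and bone marrow thus had like Il1rn levels and unlike Il1b levels. In lymph node and liver the Il1rn levels were too near 0 for a ratio to be read.

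Il18 and its soluble inhibitor did not share this gradient. Il18 (chr9:50554827-50581840, plus strand), the second caspase-1 substrate among the cytokines, was at 12.7, 13.6 and 14.2 TPM in blood and at 6.43, 11.2 and 20.2 TPM in lung. It was at 2.86, 9.64 and 3.85 TPM in liver, 6.34, 6.19 and 2.22 TPM in spleen and 4.91, 2.67 and 5.27 TPM in bone marrow. Lymph node was the lowest, with 1.42, 1.74 and 1.26 TPM. Neighbours in the order of means overlapped everywhere except at the last step, from bone marrow to lymph node. The highest single library was from lung, not blood, and the lung libraries differed among themselves by more than the means of most organs did. The 9.17-fold span of the Il18 means is small beside that of Il1b.

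Il18bp encodes the binding protein that keeps IL-18 from its receptor, and its organ means lay between 5.19 and 7.86 TPM with every pair of neighbours overlapping. It lies at chr7:102014885-102018690 on the minus strand. The values were 6.55, 6.20 and 5.36 TPM in blood, 6.11, 9.13 and 8.34 TPM in bone marrow, and 5.66, 6.13 and 5.51 TPM in lymph node. One liver library was far from the other 2, at 0.29 TPM against 7.64 and 8.84 TPM. Il18bp shares 80 exon bases with Numa1 on the opposite strand, which was at 116 to 192 TPM, and the strand setting of the counting is not given in the sources used here, so reads of that stretch cannot be assigned to either gene. The ratio of mean Il18 to mean Il18bp was 2.24 in blood and 2.10 in lung (1.37 without lung replicate 3), against 0.545 in bone marrow and 0.255 in lymph node.

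Of the 2 receptors for IL-1, the signalling one was barely present and the decoy was present in every library, and in TPM neither had its blood libraries above all others. Il1r1, the receptor that signals (chr1:40225080-40317257, plus strand), stayed under 1 TPM in all 18 libraries. It was at 0.75, 0.88 and 0.97 TPM in lymph node, 0.53, 0.69 and 0.69 TPM in bone marrow and 0.25, 0.70 and 0.37 TPM in lung. Blood held 0.43, 0.52 and 0.15 TPM, spleen 0.04, 0.03 and 0.03 TPM, and liver was listed at 0 in 2 libraries and at 0.36 TPM in the other. The 3 lymph node libraries lay above the other 15, and the spleen libraries lay under all of lymph node, bone marrow, lung and blood, at a depth between those groups. Because its highest organ mean was 0.867 TPM, Il1r1 did not pass the filter of 1 TPM, and it is the 1 member of 8 that was not in the fit.

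Il1r2, the decoy (chr1:40074079-40125231, plus strand), was present at nearly the same level everywhere. The libraries held 32.8, 29.8 and 35.6 TPM in blood, 30.1, 25.7 and 28.0 TPM in lung, and 25.3, 26.3 and 26.9 TPM in lymph node. Bone marrow held 25.1, 23.1 and 28.7 TPM, spleen 29.2, 18.9 and 21.5 TPM, and liver 19.0, 19.0 and 30.6 TPM. Every pair of neighbouring organs overlapped, and the highest mean was 1.43 times the lowest. In lymph node, where the myeloid markers were lowest, Il1r2 averaged 26.2 ± 0.79 TPM (SD, n = 3), 30.2 times Il1r1, while Il1b averaged 1.01 ± 0.95 TPM there.

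Casp1 was broadly present and Nlrp3 was not. Casp1 (chr9:5298517-5307265, plus strand, 1 annotated transcript) was at 91.3, 133 and 103 TPM in liver, 96.1, 93.2 and 96.7 TPM in bone marrow and 101, 83.5 and 90.5 TPM in blood. It was at 81.5, 73.1 and 63.8 TPM in spleen, 76.1, 68.5 and 58.0 TPM in lung, and 48.8, 48.5 and 49.3 TPM in lymph node. Liver, bone marrow and blood overlapped, as did spleen and lung. Blood lay above spleen and lung above lymph node with no overlap, and the means spanned 2.24-fold.

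Nlrp3 (chr11:59541568-59566956, plus strand) was nearly a presence or absence difference. Blood held 48.7, 52.4 and 48.8 TPM, lung 15.3, 15.7 and 14.98 TPM and bone marrow 11.1, 9.01 and 10.02 TPM. Liver held 0.65, 0 and 1.48 TPM, spleen 0.18, 0.08 and 0.20 TPM, and lymph node 0.19, 0.04 and 0.03 TPM. The 3 upper organs were separated from each other and from the rest without overlap, and the 3 lower organs overlapped. Lung stood above bone marrow here, whereas for Il1b bone marrow stood above lung. The ratio of mean Casp1 to mean Nlrp3 was 1.83 in blood, 4.40 in lung and 9.48 in bone marrow, and Casp1 remained at 48.9 TPM in lymph node, where Nlrp3 averaged 0.087 TPM.

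**Figure D1:**
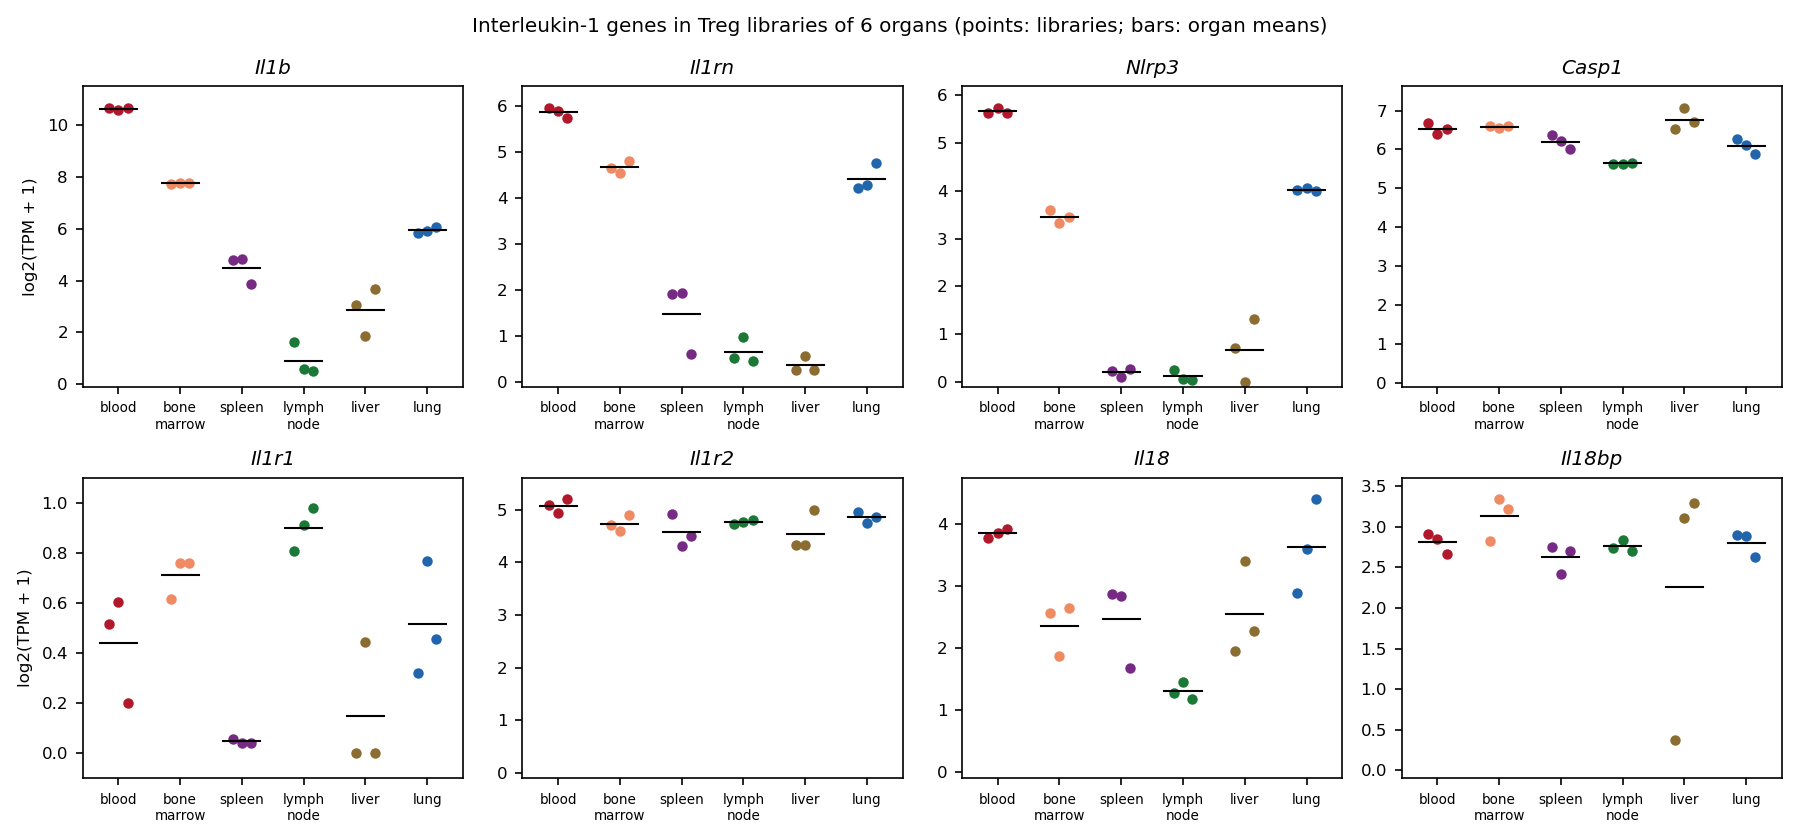
Level of the 8 genes in each library as log2(TPM + 1) (vertical axis, own range per gene, from about 0) by organ (horizontal axis). Points are libraries and bars are means of 3 libraries. Il1b, Il1rn and Nlrp3 have their 3 blood points above all others, whereas Il1r2 and Il18bp are nearly level between organs apart from 1 liver library of Il18bp at 0.29 TPM.

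Counted over the members, all 3 blood libraries lay above the other 15 for 3 of 8 genes (Il1b, Il1rn and Nlrp3), where 10.1% of the 16694 genes that passed the filter did so. All 3 lymph node libraries lay above the rest for 1 of 8 (Il1r1), where 5.63% of genes did so, a share over genes that passed the filter, which Il1r1 did not. For bone marrow, spleen, liver and lung the count was 0 of 8, where 5.28%, 2.05%, 2.05% and 6.24% of genes did so. As the members were chosen on these values, nothing is read from these counts.

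TPM shares depend on what else is in a library, and the summed level of 19 general T cell genes was 3323 TPM in blood against 5061 in bone marrow and 5359 to 7748 in the other organs. When each library was scaled to that sum, the mean of Il1b in blood was 2744 and that in bone marrow 243.5, and blood also stood above all other libraries for Il1r2, Il18 and Casp1. Scaled Il1r2 then ranged from 51.0 to 61.9 in blood and reached at most 33.0 elsewhere. Scaled Casp1 ranged from 143 to 179 in blood, and its highest value elsewhere was 125. The count with blood above all others became 6 of 8 members, but 35.6% of all genes passed the same criterion after this scaling. Lymph node no longer stood apart for Il1r1, at 0.559 to 0.723 after scaling against 0.261 to 0.891 in blood. The even level of Il1r2 between blood and the organs therefore describes shares of total RNA, not shares relative to T cell genes. The same holds for the overlap of Casp1 between blood, bone marrow and liver.

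Markers of myeloid cells moved with Il1b, Il1rn and Nlrp3. The summed level of 10 mature neutrophil genes (S100a8, S100a9, Retnlg, Mmp8, Mmp9, Cxcr2, Csf3r, Trem1, Clec4d and Ly6g) was 18083 to 19242 TPM in blood and 35730.4 to 36105 TPM in bone marrow. It was 587 to 658 TPM in lung, 411 to 550.4 TPM in spleen, 118 to 304 TPM in liver and 19.4 to 61.9 TPM in lymph node. All 10 genes averaged at least 1 TPM in blood, bone marrow and lung, 9 of 10 in spleen, 6 of 10 in liver and 4 of 10 in lymph node. Trem1 was at 0 in all 3 liver libraries, and Ly6g and Cxcr2 were at 0 in at least 1 library of both liver and lymph node.

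The 11 monocyte and macrophage genes (Lyz2, Csf1r, Cd14, Fcgr1, Adgre1, Ms4a6c, C1qa, C1qb, C1qc, Chil3 and F13a1) summed to 8532 to 8749 TPM in blood and 4058 to 4163 TPM in bone marrow. The sums were 1408 to 1539 TPM in lung, 202 to 241 TPM in spleen, 68.7 to 107 TPM in liver and 30.8 to 35.3 TPM in lymph node. All 11 averaged at least 1 TPM in blood, bone marrow and spleen, 9 of 11 in liver, 8 of 11 in lung and 3 of 11 in lymph node. Fcgr1 was at 0 in at least 1 library of spleen, lymph node and liver. The order of organs by this list was the order of organs by Il1b. The part of such cells in the levels of Il1b, Il1rn and Nlrp3 was not tested.

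Set against the neutrophil list, Il1b was not in a fixed proportion. Per 1000 TPM of that list it was 84.3 ± 0.70 TPM in blood and 98.2 ± 3.92 in lung, but 5.92 ± 0.059 in bone marrow (SD, n = 3 each). Per 1000 TPM of the monocyte and macrophage list it was 183 ± 6.94 TPM in blood, against 51.9 ± 0.60 in bone marrow and 40.6 ± 4.92 in lung. Nlrp3 per 1000 TPM of the monocyte and macrophage list was 5.79 ± 0.17 TPM in blood, against 2.45 ± 0.27 in bone marrow, 10.3 ± 0.26 in lung and 0.689 ± 0.25 in spleen. Il1rn per 1000 TPM of the monocyte and macrophage list was 6.63 ± 0.54 TPM in blood and 5.94 ± 0.63 in bone marrow, which overlap, against 14.1 ± 3.84 in lung. Neither Il1b nor Il1rn was thus a constant multiple of either list, nor was Nlrp3 of the monocyte and macrophage list. Bone marrow was low for Il1b and Il1rn against the neutrophil list. It also held 10876 TPM of 7 neutrophil precursor genes, against 129 TPM in blood. Blood further held 2183 TPM of 7 platelet genes, against 80.3 TPM in bone marrow and 4.78 to 12.8 TPM in the other organs.

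**Figure D2:**
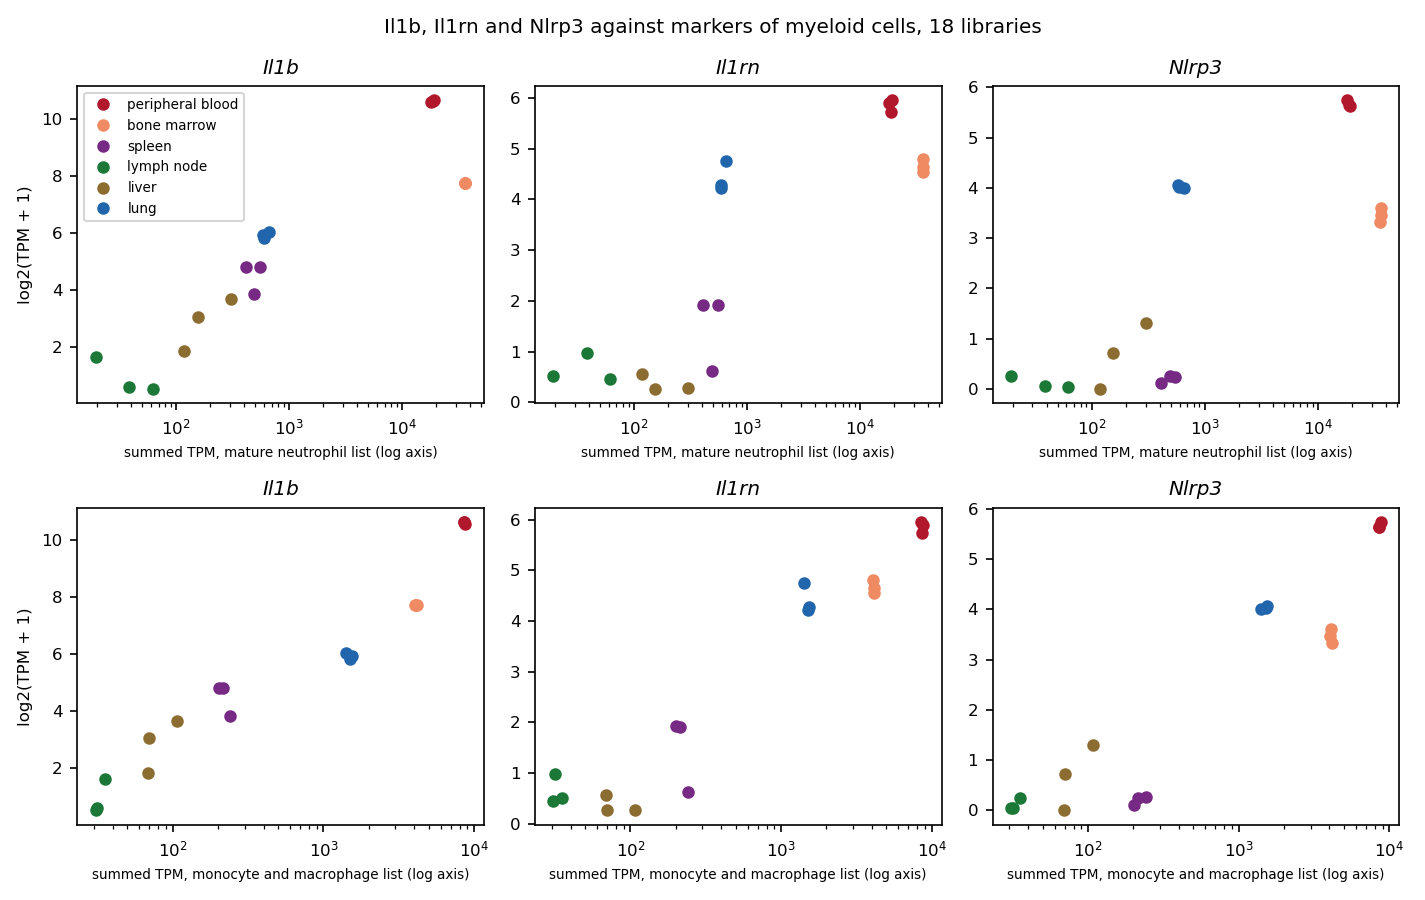
Level of Il1b, Il1rn and Nlrp3 as log2(TPM + 1) (vertical axes) against the summed TPM of the mature neutrophil list (upper row) and of the monocyte and macrophage list (lower row), both on log axes, for 18 libraries coloured by organ. Bone marrow has the highest neutrophil sum but lies under blood for all 3 genes, and in the lower row blood is highest on both axes.

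Genes whose pattern over the 6 organs was most like that of a member were found from the root mean square difference between centred organ means of log2(TPM + 1), among tested genes that reached 10 TPM in an organ. For Il1b they were Csf3r (0.44), Tyrobp (0.46), Slpi (0.46), Fcer1g (0.63) and Fn1 (0.68), against a span of 9.71 for Il1b itself. Csf3r, the receptor of granulocyte colony-stimulating factor, went from 730.1 TPM in blood to 0.22 TPM in lymph node. For Il1rn they were Csf2rb (0.16), Clec4e (0.26), Slc11a1 (0.36), Hcar2 (0.39) and Bst1 (0.40). Csf2rb, the shared chain of the receptors for GM-CSF, IL-3 and IL-5, was at 78.1 TPM in blood, against 24.3 in bone marrow and 22.2 in lung, though its reads can be shared with its near-identical paralog Csf2rb2. For Nlrp3 they were S100a1 (0.44), Csf2rb (0.45), App (0.47), F10 (0.49) and Clec4e (0.49).

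The genes nearest to Casp1 were Ier5 (0.13), Ptov1 (0.14), Oas1a (0.16), Gmfg (0.17) and Nat9 (0.19), each within a modest range between organs. Ier5, for instance, went from 79.5 TPM in lymph node to 147 TPM in blood. Nearest to Il18 were Dusp16 (0.26), Pnpla8 (0.33), Rassf3 (0.33), Fcgrt (0.36) and Bmf (0.38). No such list was made for Il1r1, Il1r2 and Il18bp, whose organ means of log2(TPM + 1) spanned less than 1 unit. These are likenesses over 6 organ means and carry no test.

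The other pathway genes were compared with limma on log2(TPM + 1), with Benjamini-Hochberg adjustment over all 16694 genes and a threshold of 0.05. Of 43 genes listed, 38 passed the filter, and 36 of the 38 differed among the 6 organs by the F test, where 68.0% of all genes did. Il1rl2 (adjusted p = 0.063) and Tab3 (0.0739) missed the threshold. The 5 genes that did not pass were the cytokine genes Il33, Il1f5, Il1f6, Il1f8 and Il1f10, each at most 0.133 TPM in its highest organ mean. The comparisons below share the 3 blood libraries and are not independent of each other.

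Against spleen, 23 of the 38 genes were higher in blood and 4 lower, where 20.1% of all genes were higher and 15.3% lower, and the median log2 fold change was 0.66 against 0.00 over all genes. With 1 library left out, the count of 23 fell to between 19 and 21. The count of 4 fell to 2 without spleen replicate 1, spleen replicate 2 or blood replicate 1. Against lymph node, 18 were higher and 6 lower, with 16.4% and 21.0% over all genes and a median of 0.48 against -0.15. The 6 became 10 with library weights, and also 10 in a fit of only the 2 groups. It was 5 whichever library was left out. Bone marrow gave 15 higher and 5 lower, with 13% and 18.8% over all genes and a median of 0.30 against -0.11. The 5 became 9 with library weights and also in a fit of only the 2 groups. With 1 library left out, the 15 became 12 to 14 and the 5 became 4. Liver gave 18 higher and 6 lower, with 23.3% and 16.1% over all genes and a median of 0.29 against 0.07. Lung gave 20 higher and 7 lower, with 26.4% and 17.3% over all genes and a median of 0.51 against 0.12. The list leaned to higher levels in blood in each of these comparisons, as far as counts and medians describe it. It was chosen with earlier results of these data known, so this lean is a description. The mature neutrophil, monocyte and platelet sums were also far higher in blood, at 18705, 8618 and 2183 TPM, than in spleen (484, 219 and 8.87), lymph node (39.9, 32.5 and 4.78), liver (192, 81.9 and 7.92) or lung (612, 1485 and 12.8). Against bone marrow, at 35977, 4109 and 80.3 TPM, the neutrophil sum was lower in blood and the other sums higher. The part of such cells in these counts, and in the counts by role below, was not tested.

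The split of calls depended on the scale. With each library scaled to its T cell genes, the median of all genes moved up by 0.84 against spleen, 0.97 against lymph node, 0.50 against bone marrow, 0.78 against liver and 0.58 against lung (log2). Over all genes the calls against spleen went from 3362 higher and 2550 lower to 10190 higher and 358 lower. Calls against lymph node went from 2745 and 3504 to 10319 and 258. For bone marrow they went from 2176 and 3132 to 6280 and 1203, for liver from 3887 and 2693 to 10517 and 807, and for lung from 4415 and 2881 to 9230 and 1207. The pathway list then had 35 higher and 0 lower against spleen, 35 and 0 against lymph node, 28 and 3 against bone marrow, 29 and 2 against liver, and 27 and 4 against lung.

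Among the other ligands, Il1f9, which encodes IL-36 gamma, had the steepest difference. It was at 121, 114 and 114 TPM in blood and 29.1, 29.3 and 32.5 TPM in bone marrow, and at most 1.91 TPM in any library of the other 4 organs. Its log2 fold changes in blood were 1.91 against bone marrow (limma adjusted p = 6.91e-06), 5.62 against lung, 5.99 against spleen, 6.67 against liver and 6.78 against lymph node. Il1a, the gene of IL-1 alpha, had another pattern, with 17.3, 10.6 and 15.5 TPM in lung and at most 3.75 TPM in any other library. Blood was lower than lung for Il1a by a log2 change of -3.25 (adjusted p = 2.73e-06), and no call was made against the other 4 organs. Lung was also the organ with transcripts of lung epithelium (4 genes, summed mean 249 TPM, at most 0.54 TPM elsewhere), whose part in the Il1a level was not tested.

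Among the 6 other receptors, 2 were higher and 2 lower in blood against spleen, 2 higher and 3 lower against lymph node, 1 and 3 against bone marrow, 1 and 3 against liver, and 2 and 3 against lung, where 20.1%, 16.4%, 13%, 23.3% and 26.4% of all genes were higher in the same order and 15.3%, 21.0%, 18.8%, 16.1% and 17.3% lower. Il1rap, the partner chain shared by the receptors for IL-1, IL-33 and IL-36, averaged 26.0 ± 1.48 TPM in blood and 6.83 to 9.93 TPM elsewhere, with log2 fold changes from 1.32 ± 0.21 (SE) against lung to 1.82 ± 0.21 against spleen. Il1rl1, which encodes ST2, ran the other way. Its libraries held 290.2, 255.0 and 254.0 TPM in lung, 152, 179.7 and 136 TPM in liver and 116, 112 and 112 TPM in bone marrow, but 27.6, 26.7 and 22.1 in lymph node, 19.1, 19.0 and 14.1 in spleen and 11.5, 12.5 and 13.4 in blood. The log2 fold change in blood was -4.31 against lung, -3.53 against liver, -3.09 against bone marrow, -0.97 against lymph node and -0.44 against spleen. The last of these did not pass without spleen replicate 1 (adjusted p = 0.0612), spleen replicate 2 (0.0607) or blood replicate 1 (0.0585), and with T cell scaling the values against lymph node and spleen turned to 0.19 and 0.54.

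Both chains of the IL-18 receptor were well above the level of Il18 itself, on the same length-adjusted scale. Il18r1 averaged 177 ± 16.3 TPM in lung, 172 ± 8.24 in liver and 138 ± 3.81 in bone marrow, against 70.3 ± 2.02 in lymph node, 44.9 ± 3.59 in spleen and 40.5 ± 2.31 in blood. In blood it was lower by log2 changes of -2.10 against lung, -2.06 against liver and -1.74 against bone marrow. Against lymph node the change was -0.78, which turned to 0.42 with T cell scaling, and against spleen it was -0.14 and not called. Il18rap, the accessory chain, was at 56.2 ± 2.12 TPM in blood and 54.3 to 77.8 TPM in bone marrow, liver and lung, against 12.003 ± 3.53 in spleen and 10.9 ± 0.91 in lymph node. Blood was higher for Il18rap by 2.18 against spleen and 2.27 against lymph node. The 6 cytotoxic cell markers (Ncr1, Klrb1c, Prf1, Gzma, Cd8a and Cd8b1) summed to 482 TPM in blood, 75.1 in spleen and 57.8 in lymph node. They summed to 23.6 TPM in bone marrow, 19.7 in liver and 65.5 in lung. The part of such cells in the Il18rap level was not tested. Sigirr, a receptor of the family that dampens signalling, was lowest in lung, at 27.9 ± 4.16 TPM, and averaged 56.9 ± 4.94 TPM in blood and 86.4 to 110.2 TPM in the other 4 organs. In blood it was higher than in lung by 1.01 and lower than in spleen (-0.94), lymph node (-0.83), bone marrow (-0.64) and liver (-0.56). With T cell scaling the last 4 values became 0.0799, 0.38, -0.0386 and 0.33, of which the one against lymph node was called, and the call against liver was also lost in a fit of only the 2 groups (adjusted p = 0.0804).

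**Figure D3:**
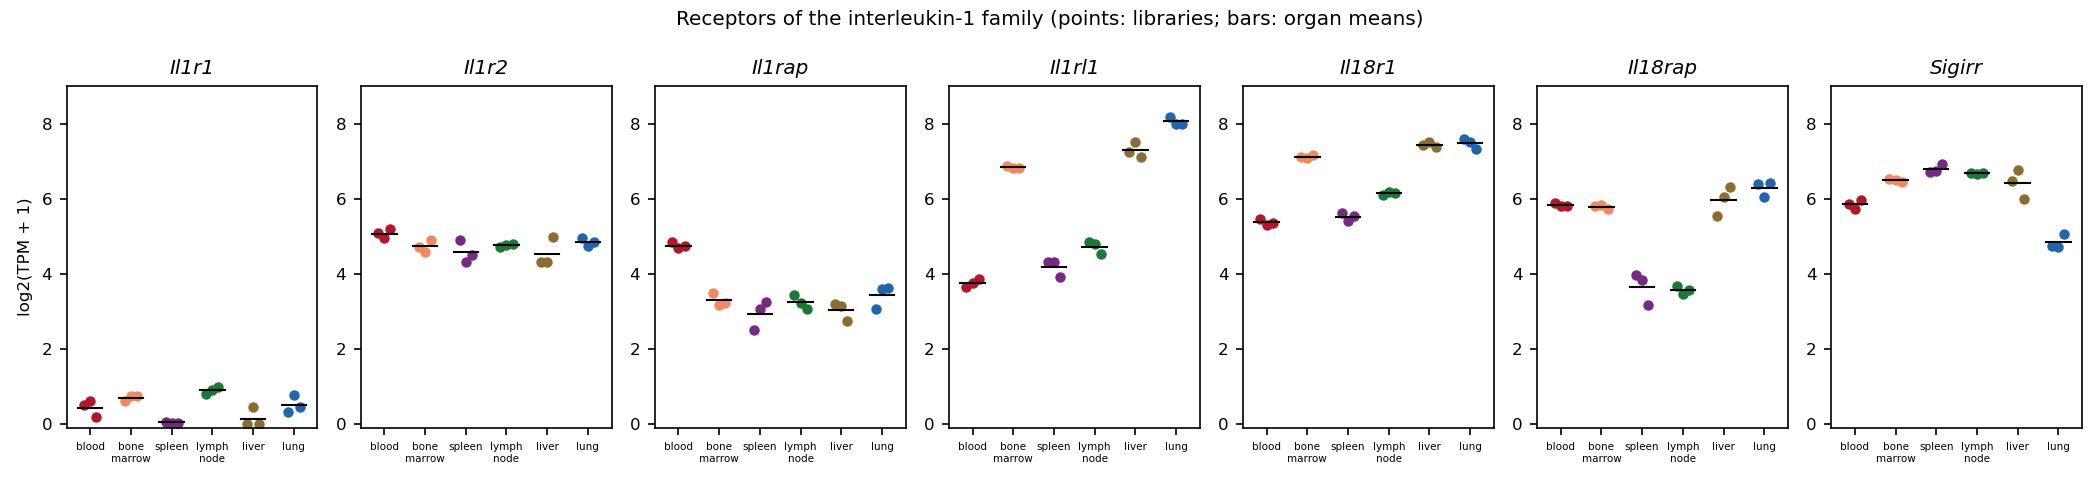
Levels of the receptor genes Il1r1, Il1r2, Il1rap, Il1rl1, Il18r1, Il18rap and Sigirr as log2(TPM + 1) on 1 common vertical scale, by organ. Points are libraries and bars are means of 3. Il1r1 is near the floor in every organ, Il1r2 is level at 22.9 to 32.7 TPM, and Il1rl1 and Il18r1 are highest in lung, liver and bone marrow.

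Of the 11 signalling genes, 7 were higher in blood against spleen and 0 lower, 4 and 1 against lymph node, 3 and 1 against bone marrow, 4 and 1 against liver and 3 and 1 against lung, where 20.1%, 16.4%, 13%, 23.3% and 26.4% of all genes were higher in the same order and 15.3%, 21.0%, 18.8%, 16.1% and 17.3% lower. The higher count against lung was near the share over all genes. Irak3 (higher) and Tab1 (lower) against bone marrow, and Traf6 (lower) against lymph node, were lost on leaving out any library of the compared organs. Some left-out libraries also removed the calls of Irak4 and Traf6 against spleen and of Irak2 against lymph node. The same held for Traf6 against bone marrow, Tab1 against liver and Irak1 against lung. Myd88, the adaptor that IL-1 and IL-18 receptors share with Toll-like receptors, averaged 109 ± 1.12 TPM in blood and 39.4 to 53.5 TPM elsewhere, with log2 fold changes from 1.02 to 1.46. Irak3, a kinase-like inhibitor of this route, was at 22.2 ± 1.62 TPM in blood, 18.2 ± 2.17 in lung and 14.8 ± 0.78 in bone marrow, against 3.82 to 5.12 TPM in the other 3 organs. The log2 fold changes of Irak3 in blood were 2.10 against spleen, 1.92 against lymph node and 2.29 against liver, and the difference from lung was 0.28 (adjusted p = 0.295). Irak4, the kinase next to MyD88, averaged 32.9 ± 1.14 TPM in blood and was higher than in lung by 1.58 and than in liver by 1.17.

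Of the 12 inflammasome sensors and adaptor genes, 9 were higher in blood against spleen, 8 against lymph node, 7 against bone marrow, 9 against liver and 10 against lung, where 20.1%, 16.4%, 13%, 23.3% and 26.4% of all genes were higher in the same order. None was lower except Aim2 against liver. Mefv, the gene of the sensor pyrin, averaged 23.3 ± 1.12 TPM in blood, against 6.003 ± 0.28 in bone marrow, 1.69 in lung, 1.42 in spleen and under 0.1 TPM in lymph node and liver. Its log2 fold changes in blood were 1.79 against bone marrow, 3.203 against lung, 3.33 against spleen, 4.48 against lymph node and 4.49 against liver. Nlrp1a averaged 6.06 ± 0.62 TPM in blood and 0.227 to 1.72 TPM elsewhere, and its call against bone marrow (1.38) was lost with a pseudocount of 0.1 (adjusted p = 0.111). Naip2, Naip5 and Naip6, sensors of bacterial flagellin and secretion systems, averaged 24.3, 28.2 and 15.4 TPM in blood. They are near-identical paralogs, so their separate levels are uncertain and their calls in the counts above may not be independent. Of the 12 genes counted, 9 reached 5 TPM in an organ mean.

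The adaptor and 2 other components had smaller differences between organs. Pycard, the adaptor ASC that links sensors to caspase-1, averaged 99.3 ± 3.80 TPM in blood and 102 to 134 TPM in the other organs except lung, at 67.2 ± 19.8, and no call was made against spleen, lymph node, bone marrow or liver. Nek7, which NLRP3 needs for assembly, lay between 40.4 and 52.5 TPM in all organ means. Its 1 call, higher in blood than in bone marrow by 0.35 (adjusted p = 0.0168), was lost without bone marrow replicate 2 (0.0568), blood replicate 1 (0.0596) or blood replicate 3 (0.0538). Aim2, a sensor of DNA, averaged 111 ± 8.45 TPM in blood, 100.1 ± 7.64 in lymph node, 161 ± 39.5 in liver and 71.5 ± 4.62 in spleen. Aim2 was higher in blood against spleen by 0.62 (adjusted p = 0.0098). It was lower in blood against liver by -0.51 (adjusted p = 0.027), a call that was lost without liver replicate 1 (-0.33, adjusted p = 0.131), liver replicate 2 (0.0501), blood replicate 2 (0.0662) or blood replicate 3 (0.0897) and that turned to 0.39 with T cell scaling. Adaptor, protease and decoy were thus found at 26.2 to 108 TPM in lymph node, the organ with the lowest myeloid marker sums, where Nlrp3, Mefv and Il1b were near 0 or 1 TPM.

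Of the 7 genes of processing and release, 4 were higher and 2 lower against spleen, 3 and 2 against lymph node, 3 and 1 against bone marrow, 3 and 1 against liver and 4 and 2 against lung, where 20.1%, 16.4%, 13%, 23.3% and 26.4% of all genes were higher in the same order and 15.3%, 21.0%, 18.8%, 16.1% and 17.3% lower. Ninj1, which ruptures the membrane of dying cells, averaged 93.0 ± 7.20 TPM in blood, 41.8 ± 6.48 in lung, 27.7 ± 2.07 in bone marrow and 15.01 to 17.9 TPM in the other 3 organs, with log2 fold changes from 1.14 to 2.58. Txnip, which binds thioredoxin and has been linked to NLRP3 activation, averaged 929 ± 35.0 TPM in blood, 392 to 530.0 TPM in 4 organs and 233 ± 7.80 in lung. Gsdmd, the pore protein gasdermin D, was at 149 ± 10.4 TPM in blood and 60.1 ± 8.33 in lung, a log2 difference of 1.30. Gsdmd was also called higher against spleen, by 0.41 (limma adjusted p = 0.0449). That call was lost with no filter and on leaving out any library of blood or spleen. The lower calls of Casp4 and Panx1 against spleen were each lost on leaving out some of these libraries. Serpinb1a, an inhibitor of neutrophil proteases and inflammatory caspases, was highest in bone marrow at 113 ± 8.76 TPM, against 32.9 ± 4.37 in blood, a log2 change of -1.75 in blood. Blood was higher for Serpinb1a than lymph node by 2.09, than liver by 1.16 and than spleen by 0.90. The call against liver was lost in a fit of only the 2 groups (adjusted p = 0.0646), and that against spleen without spleen replicate 2 (0.0913), spleen replicate 3 (0.0596), blood replicate 1 (0.0555) or blood replicate 3 (0.08).

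**Figure D4:**
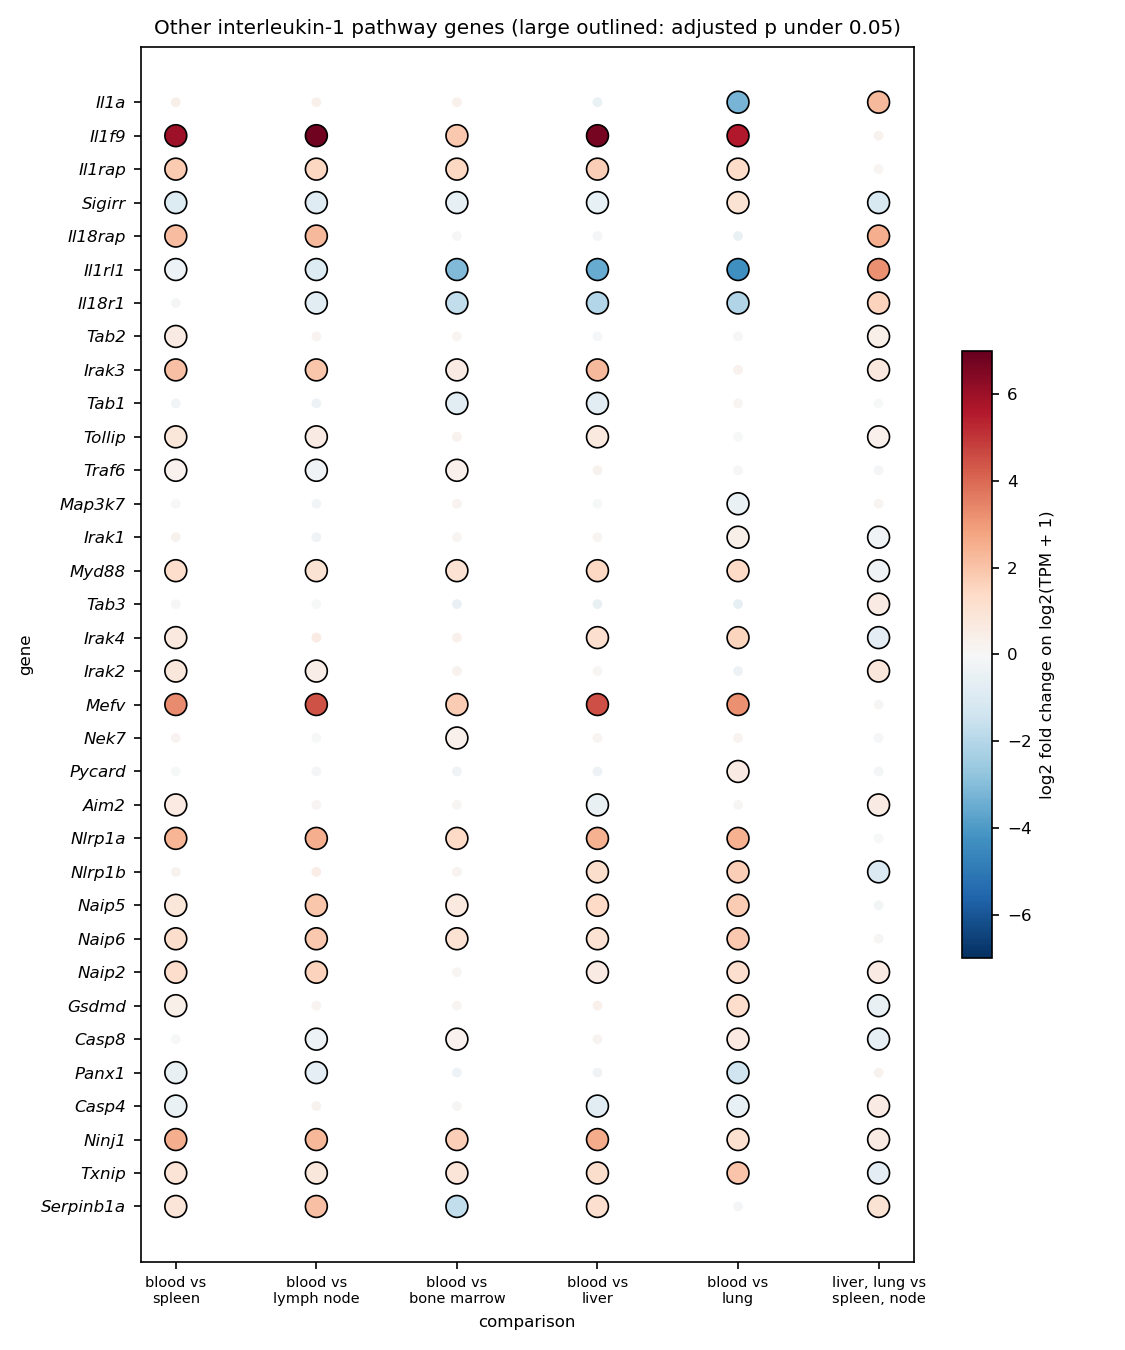
Log2 fold change on log2(TPM + 1) (colour) of the 34 other pathway genes that reached 5 TPM in an organ mean, for blood against each of 5 organs and for liver and lung against spleen and lymph node. Large outlined points passed an adjusted p of 0.05. Il1f9 and Mefv are red in all 5 blood columns, and Il1rl1 is blue in them, although with T cell scaling Il1rl1 turns to 0.54 against spleen and 0.19 against lymph node.

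Among the organs other than blood, liver and lung were set against spleen and lymph node. Of the 38 genes, 14 were higher and 8 lower in liver and lung, where 16.3% and 29.3% of all genes were, and the median log2 fold change was 0.14 against -0.15. With T cell scaling the list had 20 higher and 5 lower, and the calls over all genes went from 2719 higher and 4896 lower to 4374 and 2367, with a shift of the median by 0.22. Of the 6 other receptors, 3 were higher and 1 lower. Il1rl1 was higher by 3.22 ± 0.090 (SE), Il18rap by 2.52 ± 0.14 and Il18r1 by 1.62 ± 0.056. Il1a was higher by 2.25 ± 0.26, and this rested on lung, since its liver mean was 1.61 ± 1.88 TPM. Sigirr was lower by a log2 change of -1.11, Nlrp1b by -1.08 and Txnip by -0.73. For Sigirr and Txnip this came more from lung than from liver. The log2 change in blood was 1.01 against lung and -0.56 against liver for Sigirr, and 1.99 and 1.24 for Txnip.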

How the data were processed

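The authors deposited 1 table of TPM values per library. Per the submitters' processing notes the tools were STAR and RSEM and the build mm10. Versions, annotation and strand setting are not given in the sources used here, although the labels' protocols name a directional kit. Totals ran from 999999.27 to 1000000.62 per library, and 14314 to 19797 genes were above 0. Symbols and loci came from GENCODE M21 (GRCm38), which named 55141 of 55487 IDs. Genes that averaged 1 TPM or more in any organ (16694) entered 1 limma fit (limma 3.58.1, R 4.3.3) of log2(TPM + 1) over 18 libraries, with a mean per organ, no covariate, and eBayes with trend and robust settings. Fold changes understate changes of low genes. P-values were adjusted by Benjamini-Hochberg over all tested genes. The planned form for counts was not needed, and the fit was tested on simulated data. Read steps came from 12062 single-transcript genes, where 73.0% to 91.8% of low values fell within 0.1 of a whole read. Python 3.11.15 with pandas 2.3.3 and numpy 2.4.6 made the other values.

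All 8 members were described. Other pathway genes were eligible to be named from 5 TPM in an organ mean, and like genes (5 per member with a span of at least 1) from 10 TPM; the 5 genes that failed the filter and Il1rl2 were named after their values were seen. The members, pathway lists and marker lists were chosen with earlier results of these data known. One gene of the planned monocyte and macrophage list is not reported here and was left out of its sums. Promoter windows are RefSeq's (GRCm38.p6), matched for 8 of 8 members. Replicate numbers were checked for pairing: deviations of same-numbered libraries correlated between -0.0345 and 0.0302 over 45 pairs. Those of differently numbered libraries correlated between -0.0349 and 0.0397 over 90 pairs. No sign of pairing by number was seen, but with 3 libraries per organ a weak shared effect could be missed. Alternatives were another pseudocount (0.1), no filter, library weights, a replicate block, T cell scaling, only the groups compared, and leaving out each library, which was extended to ratios between members after seeing the data. The level of T cell genes used for scaling is the median library's sum of 19 genes.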

Additional observations from a re-analysis of the deposited data

How the results depend on the processing

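Counts of pathway genes stayed within 1.5 times under a pseudocount of 0.1, no filter and the replicate block, which gave 35 genes by the F test (36 without it). A replicate block was fitted although no sign of pairing by number was seen. Scaling to T cell genes moved most counts: higher against spleen 35, lymph node 35, bone marrow 28 and liver 29, and lower against spleen 0, lymph node 0, bone marrow 3, liver 2, lung 4, and liver and lung against spleen and lymph node 5. Library weights, and separately a fit of only the groups compared, gave 10 genes lower against lymph node and 9 against bone marrow. The cause was not tested. Leaving out 1 library gave 2 to 4 genes lower against spleen, 2 without spleen replicate 1, spleen replicate 2 or blood replicate 1. With T cell scaling these called log2 changes turned positive: against spleen Il1rl1 0.54, Sigirr 0.0799, Casp4 0.55 and Panx1 0.47, against lymph node Il1rl1 0.19, Il18r1 0.42, Sigirr 0.38, Traf6 0.87, Casp8 0.82 and Panx1 0.53, against liver Sigirr 0.33, Tab1 0.0437, Aim2 0.39 and Casp4 0.11, against lung Map3k7 0.18 and Casp4 0.13, and for liver and lung against spleen and lymph node Myd88 0.0256 and Irak1 0.00672. Among members, T cell scaling moved 33 of 40 differences between blood and another organ by more than their spread and left 6 within it. The remaining 1, the difference of Il18bp between blood and bone marrow, turned to 0.22. The shallower liver and lung libraries limit values under about 1 TPM, among them Il1r1 in every organ and Nlrp3 in liver.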
